A study of Homo sapiens with 6 samples.

Results

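GPSM2 and 9 other genes that orient the mitotic spindle (GPSM1, NUMA1, GNAI1, GNAI2, GNAI3, DLG1, INSC, AFDN and HMMR) were followed in U-2 OS cells with and without ionizing radiation. They are 10 of the 21447 genes to which the deposited transcripts could be assigned, and they were picked by name for their role in spindle orientation. GPSM2 headed the choice because its difference after radiation was already known from these libraries. The differences between irradiated and untreated cells are therefore given for the 10 genes as a description, with no p-value of their own. Whether a gene passed the fit across all genes is stated for completeness and supports nothing.

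In a dividing cell, the G protein alpha subunits encoded by GNAI1, GNAI2 and GNAI3 sit at the plasma membrane in their GDP-bound form and hold GPSM2 (also called LGN) through its GoLoco motifs. The other end of GPSM2, a row of TPR repeats, binds NUMA1, which recruits dynein, and dynein pulls on astral microtubules to set the axis of division. GPSM1 (AGS3) is the paralog of GPSM2, INSC competes with NUMA1 for GPSM2 and links it to the PAR polarity proteins, DLG1 and AFDN (afadin) help to place GPSM2 at the cortex, and HMMR is a microtubule-associated protein of the spindle and its poles.

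U-2 OS is an established human osteosarcoma line. Cells were either left untreated (UT, 3 libraries) or given 4 Gy of ionizing radiation and collected after 24 h (IR, 3 libraries), with no other agent and no engineered allele named for these samples. The cultures were asynchronous bulk populations, and the RNA was described as poly(A) RNA in the sample labels and as a total RNA library in the study's methods. The study describes 3 independent samples per group without saying whether each was a separate culture, so that the spread between them may be partly technical.

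The estimated counts totalled 18573309 to 22953834 in 5 libraries and 45308792 in IR replicate 3, so values of that library carry the smallest counting error. IR replicate 3 also stood apart from the other IR libraries beyond sampling noise, with a chi-square per gene of 28.0 and 31.1 against 3.47 to 9.20 in the other pairs of replicates, and its deposited file carries a mark that the labels and methods do not explain. Of the 5 mesenchymal markers, VIM, FN1 and COL1A1 were abundant, RUNX2 lay between 11.3 and 16.1 CPM (the count of a gene relative to library size) and COL1A2 between 0.977 and 2.14 CPM. Of these 5 markers, 1 passed as lower after IR, 2 with the GC trend of each library removed and 0 with an offset for effective length. Among markers of other cell types, CD3E and ALB were at 0 counts in the 6 libraries and PTPRC and PECAM1 stayed at 1.76 CPM or below, whereas the epithelial markers EPCAM and CDH1 were detected. EPCAM lay between 8.55 and 10.6 CPM and did not pass between groups, and CDH1, between 1.87 and 3.43 CPM, rose by 0.61 on the log2 scale after IR (adjusted p = 0.0465, edgeR's quasi-likelihood test), the 1 of 3 tested markers of this list to pass, though not with an offset for effective length. CDKN1A, the cell cycle inhibitor that p53 induces, was at 122 ± 1.70 CPM in UT and 351 ± 34.9 CPM in IR libraries (SD, n = 3 each) and rose by 1.53 on the log2 scale (adjusted p = 2.82e-05, edgeR's quasi-likelihood test). Over all 14323 genes tested by edgeR, 2227 were higher and 2080 lower after IR.

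The promoters of GPSM2, of its paralog GPSM1 and of HMMR are shown because GPSM2 and HMMR share an arrangement of short motifs that GPSM1 lacks. Each stretch is the 250 bases before the start site that RefSeq gives on GRCh38.p14, on the plus strand. These positions are chr1:108876735-108876984 for GPSM2, chr9:136327289-136327538 for GPSM1 and chr5:163460382-163460631 for HMMR. Capitals mark TTTGAA, the core of the cell cycle genes homology region (CHR) found in promoters of many genes expressed in G2 and mitosis, and CCAAT, the site of the factor NF-Y, which reads as ATTGG where it lies on the minus strand.
GPSM2: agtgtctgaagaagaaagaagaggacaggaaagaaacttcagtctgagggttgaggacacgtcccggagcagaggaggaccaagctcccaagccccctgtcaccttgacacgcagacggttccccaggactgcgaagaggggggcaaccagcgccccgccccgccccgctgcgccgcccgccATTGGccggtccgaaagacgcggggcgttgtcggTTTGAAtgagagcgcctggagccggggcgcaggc
HMMR: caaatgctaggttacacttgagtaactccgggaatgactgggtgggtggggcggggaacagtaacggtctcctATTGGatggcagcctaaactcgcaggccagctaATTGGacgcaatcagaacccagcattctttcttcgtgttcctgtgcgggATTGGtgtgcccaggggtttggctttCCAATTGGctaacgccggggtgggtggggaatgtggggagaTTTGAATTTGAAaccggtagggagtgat
GPSM1: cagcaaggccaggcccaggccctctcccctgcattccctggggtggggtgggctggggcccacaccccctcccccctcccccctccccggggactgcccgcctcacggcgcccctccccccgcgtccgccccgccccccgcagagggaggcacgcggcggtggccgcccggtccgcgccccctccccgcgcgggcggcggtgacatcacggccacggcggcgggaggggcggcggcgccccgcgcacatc

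In GPSM2 the TTTGAA begins 34 bases before the start and 1 CCAAT, on the minus strand, begins 68 bases before it. That start is the one of transcript GPSM2-201. GPSM2-223, with most counts of the gene, starts further downstream at position 108877146, and no window at its start was searched. HMMR carries 2 adjoining TTTGAA, at 28 and 22 bases before the start, and 5 CCAAT, the nearest of which overlap each other at 69 and 66 bases before the start. GPSM1 has neither motif in this window, which extended by the 50 bases after the start is 82.0% G and C and holds 5 copies of the GC box GGGCGG. Both strands of each 300-base window (250 bases before and 50 after the start) were searched. Among all 34943 human promoter windows in the same table, 15.2% held TTTGAA, 34.6% CCAAT and 44.9% GGGCGG. The pairing of TTTGAA with a CCAAT that begins 20 to 50 bases before it occurred in 0.936% of these windows and, among the 10 genes, in those of GPSM2 and HMMR. That distance was set after the positions in GPSM2 and HMMR had been seen. TTTGAA was otherwise found in 1 of 5 windows of DLG1, 6 bases before the start, and in 1 of 2 windows of GNAI1, 196 bases before it. That DLG1 window also held a CCAAT, which begins 63 bases before the start and so lies just outside the distance set. These matches describe the sequence and not the binding of a factor.

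GPSM2 (ENSG00000121957, chr1:108875350-108934545 on GRCh38, plus strand) reached 111, 116 and 115 CPM without radiation, against 70.0, 68.6 and 68.0 CPM after IR. Untreated and IR libraries did not overlap, and the highest IR library lay well below the lowest untreated one. The means were 114 ± 2.85 CPM (SD, n = 3) and 68.9 ± 1.03 CPM (SD, n = 3), a log2 fold change of -0.73 (standard error 0.06), or 0.604 of the untreated level. The spread between libraries was small, with a coefficient of variation of 2.5% in untreated and 1.5% in IR libraries.

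Across the 10 genes, 9 had enough counts to be tested and INSC did not. Of these 9, 4 passed as lower after IR (GPSM2, DLG1, AFDN and NUMA1), 1 passed as higher (GPSM1) and 4 did not pass (GNAI1, GNAI2, GNAI3 and HMMR). Over all genes tested, 14.5% passed as lower, 15.5% as higher and 30.1% in either direction. In CPM, the IR and untreated libraries did not overlap in 8 of the 9 genes, against 47.1% of all genes tested. The median log2 fold change of the 9 genes was -0.18, and that of all genes tested was 0.01. Because the choice of genes used this contrast, nothing is read from these counts.

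**Figure D1:**
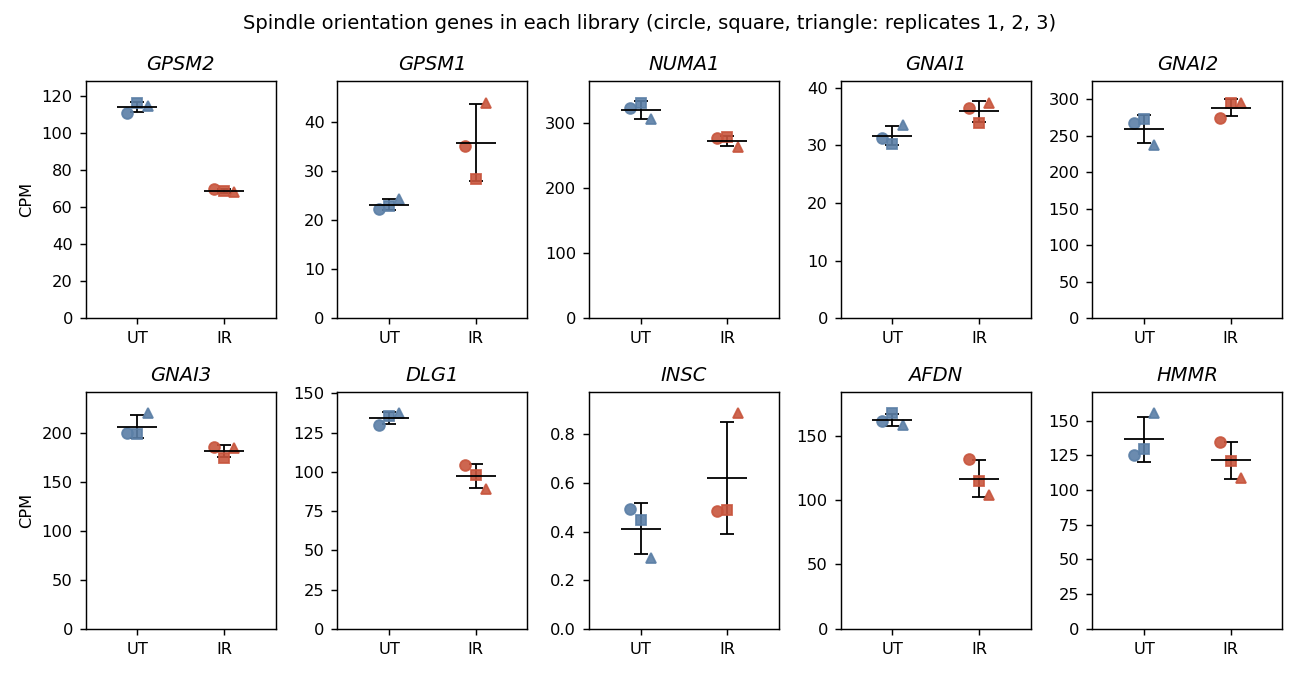
Level of each of the 10 genes in CPM (y axis, from 0, a separate scale for each gene) in the 3 untreated (UT, blue) and 3 IR (red) libraries. Symbols are single libraries, and horizontal lines and bars are the mean and SD. GPSM2 lies at 111 to 116 CPM in UT and 68.0 to 70.0 CPM in IR, and only INSC and HMMR overlap between groups.

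Markers of dividing cells moved in the same libraries. Of 12 mitotic cell markers, 8 fell after IR and 4 did not pass, with a median log2 fold change of -0.45, where 14.5% of all genes tested were lower. With the GC trend of each library removed 9 of the 12 were lower, where 13.0% of all genes tested were. With an offset for effective length 4 were lower, where 6.11% of all genes tested were. Their summed level was 3839 to 4056 CPM in untreated and 2601 to 2923 CPM in IR libraries. MKI67, a marker of proliferating cells, had a log2 fold change of -1.10 (adjusted p = 4.20e-04) and TOP2A, a topoisomerase of dividing cells, one of -0.54 (adjusted p = 0.00130, not passing with the length offset or on the TPM scale), whereas CCNB1, the mitotic cyclin B1, was at -0.02 (adjusted p = 0.868, edgeR's quasi-likelihood test for each). Abundant markers weigh most in the summed level, with mean MKI67 at 716 CPM in untreated and 335 CPM in IR libraries. Mean TOP2A was at 728 CPM in untreated and 501 CPM in IR libraries. In bulk RNA, fewer cells in G2 or mitosis and less RNA per cell cannot be told apart, and the part of the marker shift in the values of GPSM2 was not tested.

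The reads of GPSM2 came largely from transcripts that share sequence with a neighbour. CLCC1, a chloride channel gene on the opposite strand, overlaps 5461 of the 19578 exonic bases of GPSM2. The leading transcript, GPSM2-223 (2741 bases, 16 exons), ends in an exon of 677 bases that lies wholly in CLCC1 exons, and GPSM2-201 (7152 bases) ends there in one of 4845 bases. Both encode the same 2052 coding bases. GPSM2-223 held 50.1%, 46.0% and 59.8% of the estimated counts of the gene in untreated libraries and 59.3%, 62.6% and 55.9% after IR. These shares overlapped between groups.

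The 10 of 24 GPSM2 transcripts that touch no CLCC1 exon held 6.43%, 7.77% and 7.49% of the counts of GPSM2 in untreated libraries. After IR they held 10.6%, 10.4% and 9.28%, with no overlap between the groups. None of them holds the 2052 coding bases of GPSM2-223, and some are retained introns or lack a defined coding sequence. On these transcripts alone the log2 fold change was -0.26 with a 95% confidence interval of -0.57 to 0.05. This count was added after the values of GPSM2 had been seen, and it includes the assignment of shared reads by the pseudoaligner. CLCC1 itself was measured at 83.7, 84.3 and 92.5 CPM in untreated and 82.3, 84.4 and 73.9 CPM in IR libraries, a log2 fold change of -0.12 (adjusted p = 0.261, edgeR's quasi-likelihood test). Its groups overlapped. Whether the counting used strand is not given in the sources used here, so it is not known whether reads of the shared stretch were told apart by strand.

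GPSM2-207 (5609 bases), which also encodes 2052 coding bases, held 8.01%, 8.88% and 4.72% of the counts in untreated and 4.62%, 3.20% and 1.06% in IR libraries. The libraries of the groups did not overlap, although the closest pair differed by little.

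GPSM1 (ENSG00000160360, chr9:136327476-136359605, plus strand), the paralog, was measured at 22.3, 22.9 and 24.4 CPM in untreated and at 35.1, 28.5 and 44.02 CPM in IR libraries. No IR library reached down to the untreated ones, but the IR libraries were spread widely, with IR replicate 3 the highest. The log2 fold change was 0.64 (standard error 0.14), which became 0.45 without IR replicate 3. GPSM1 is rich in G and C (66.4% of its transcript bases, against 41.6% in GPSM2), and once each library's dependence on GC content was taken out (GC trend removed) the log2 fold change was 0.18 and did not pass.

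Per length, on the TPM scale, GPSM2 remained the more abundant of the paralogs in each library. The ratio of GPSM2 to GPSM1 was 9.0, 9.50 and 9.50 in untreated libraries and 3.81, 4.63 and 2.54 in IR libraries. The groups did not overlap, and GPSM1 made up 9.68% ± 0.276 of the summed TPM of the pair in untreated and 22.3% ± 5.38 in IR libraries (SD, n = 3 each). On the TPM scale the rise of GPSM1 itself did not pass. The sum of both genes was 69.6 ± 4.40 TPM in untreated and 50.2 ± 4.87 TPM in IR libraries (SD, n = 3 each).

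Most counts of GPSM1 lay on GPSM1-202, at 79.1%, 85.5% and 88.3% in untreated and 78.5%, 73.2% and 69.2% in IR libraries. GPSM1-202 starts at position 136331983, and no window at its start was searched for motifs. GPSM1-205, which starts at the promoter shown above, was listed at 0 in the untreated libraries, which allows a share of up to 0.739%, 0.585% and 0.600% from counting error alone. It held 2.89%, 7.58% and 14.0% of the counts in IR replicates 1, 2 and 3. All 3 IR libraries thus lay above the untreated ones, with a wide range among them, and a pseudoaligner's 0 can also be a failed split between similar transcripts.

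NUMA1 (ENSG00000137497, chr11:72002864-72080693, minus strand), which carries the pull of dynein to GPSM2, was measured at 323, 332 and 306 CPM in untreated and 277, 278 and 264 CPM in IR libraries. The gap between the groups was small, with no overlap. The log2 fold change was -0.23 (standard error 0.06). With the GC trend removed it was -0.41, and it no longer passed with the effective length offset (-0.30), with the replicate numbers as a block, on the TPM scale, or without untreated replicate 1 or 2.

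**Figure D2:**
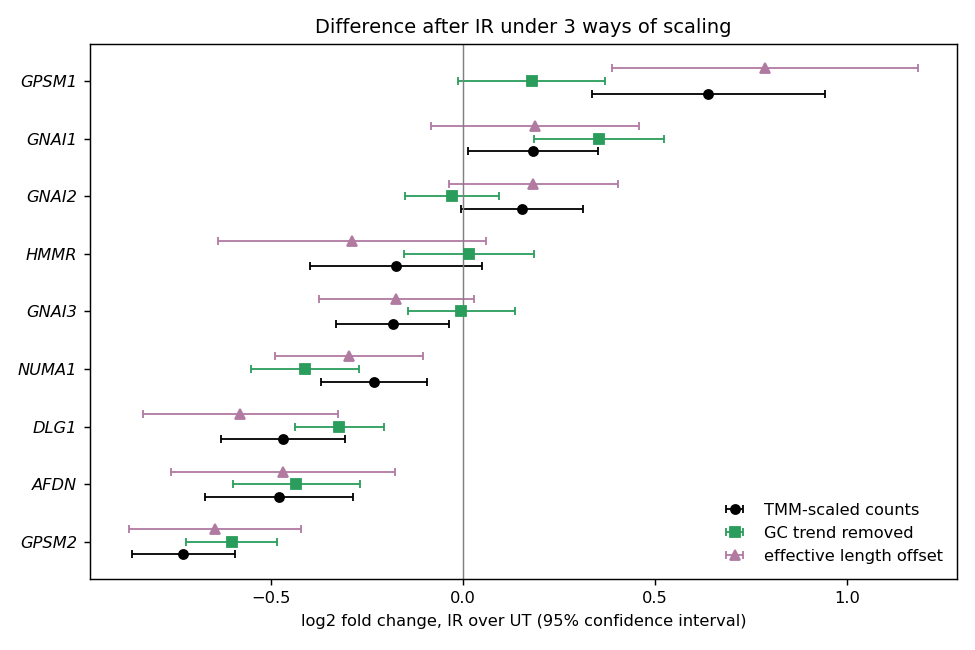
Log2 fold change of IR over untreated (x axis) for the 9 tested genes, with 95% confidence intervals not adjusted for multiple genes, from scaled counts (black), after removal of the GC trend (green) and with an offset for effective length (purple). GPSM2, AFDN and DLG1 stay to the left of 0 in each, whereas GPSM1 moves from 0.64 to 0.18 and GNAI2 and HMMR cross 0 when the GC trend is removed.

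NUMA1-205, the canonical transcript, and NUMA1-233 differ, among other exons, by one of 42 bases at chr11:72012401-72012442 (GRCh38, minus strand), a length divisible by 3. Its sequence is shown because it helps to separate the transcripts that hold most NUMA1 counts.
NUMA1 exon: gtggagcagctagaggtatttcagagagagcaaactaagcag

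NUMA1-205, the transcript with this exon, made up 55.4%, 57.8% and 47.1% of the summed TPM of the transcripts that include or skip it in untreated libraries and 58.6%, 59.1% and 45.3% in IR libraries. The groups overlapped, and replicate 3 was the lowest in each. A shorter transcript, NUMA1-223 (2766 bases), held 8.66%, 5.33% and 6.95% of the counts of NUMA1 in untreated libraries and 1.74%, 1.21% and 1.28% after IR. These groups did not overlap. Parts of NUMA1 overlap exons of IL18BP, LRRC51 and LRTOMT on the opposite strand, and NUMA1-223 reaches an antisense long non-coding RNA whose reads were not counted separately.

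The Gαi subunits, which anchor GPSM2 to the membrane, showed smaller differences than GPSM2. GNAI1 (chr7:79768028-80226181, plus strand) was measured at 31.3, 30.2 and 33.5 CPM in untreated and 36.4, 33.8 and 37.4 CPM in IR libraries. GNAI2 (chr3:50226292-50259362, plus strand) was measured at 267, 272 and 237 CPM in untreated and 275, 295 and 295 CPM in IR libraries. GNAI3 (chr1:109548615-109600195, plus strand) was measured at 201, 199 and 220 CPM in untreated and 186, 174 and 185 CPM in IR libraries. In each of the 3 genes the groups did not overlap in CPM, GNAI1 and GNAI2 lying higher and GNAI3 lower after IR. The nearest libraries of the groups differed by little in GNAI1 and GNAI2. On the TPM scale the groups overlapped in GNAI1 (36.0 to 44.5 in untreated and 37.7 to 47.5 in IR libraries). They also overlapped there in GNAI2 (124 to 140 in untreated and 138 to 165 in IR libraries).

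The log2 fold changes were 0.18 (95% confidence interval 0.01 to 0.35) for GNAI1, 0.15 (-0.0044 to 0.31) for GNAI2 and -0.18 (-0.33 to -0.04) for GNAI3, and none passed over all genes. With the GC trend removed, GNAI1 was at 0.35 and passed, GNAI2 turned to -0.03 and GNAI3 was at -0.0041. The order of the 3 genes thus depended on how the GC trend was treated. GNAI3 passed under 2 of the 15 alternatives set for all genes, 1 of them with a library left out.

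Summed over the 3 genes, Gαi transcripts reached 207, 211 and 205 TPM in untreated and 212, 203 and 245 TPM in IR libraries. The groups overlapped, with IR replicate 3 the highest. GNAI2 supplied 60.2% to 66.5% of the sum in untreated and 65.0% to 67.9% in IR libraries, also with overlap. GNAI3 supplied 16.4%, 16.3% and 18.1% in untreated and 14.5%, 13.5% and 13.3% in IR libraries, with no overlap. Per unit of GPSM2, the summed Gαi level was 3.52, 3.36 and 3.06 in untreated and 5.14, 5.52 and 6.35 in IR libraries on the TPM scale. This ratio did not overlap between groups, and in it GPSM2 itself is the denominator.

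**Figure D3:**
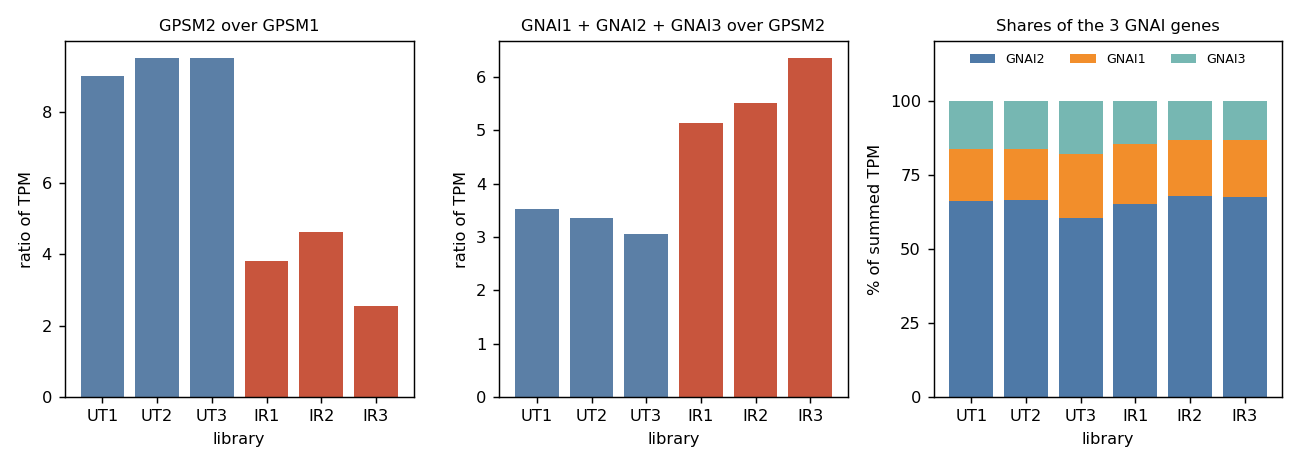
Ratios and shares on the TPM scale in each library (x axis, UT blue and IR red in the left and middle panels). GPSM2 over GPSM1 is 9.0 to 9.50 in UT and 2.54 to 4.63 in IR, the summed Gαi genes over GPSM2 are 3.06 to 3.52 in UT and 5.14 to 6.35 in IR, and the right panel shows GNAI2 (blue), GNAI1 (orange) and GNAI3 (teal) as shares of their sum.

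Most counts of GNAI1 (51.9% to 67.1%) were assigned to GNAI1-213, a transcript of 1529 bases without a defined coding sequence in the annotation. GNAI3 has 1 transcript in the files. The main transcripts of GNAI2 are GNAI2-202, the coding one, and GNAI2-205, which lacks an exon of 43 bases at chr3:50252100-50252142 (GRCh38, plus strand) and is annotated as a target of nonsense-mediated decay. The exon is shown because its length is not divisible by 3, so that skipping it shifts the frame.
GNAI2 exon: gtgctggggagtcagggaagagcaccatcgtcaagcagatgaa

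GNAI2-205 held 16.0%, 19.3% and 23.2% of the counts of GNAI2 in untreated libraries and 7.70%, 15.8% and 0% in IR libraries. The value of 0 in IR replicate 3 allows a share of up to 0.0225% from counting error alone, and it may be a failed split as above. Transcripts with the exon made up 81.5%, 78.1% and 73.4% of the summed TPM of transcripts that include or skip it in untreated and 91.2%, 82.0% and 100% in IR libraries. The groups did not overlap, although IR replicate 2 and untreated replicate 1 were nearly equal.

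The cortical partners DLG1 and AFDN lay below their untreated levels after IR. DLG1 (ENSG00000075711, chr3:197042560-197299330, minus strand), a scaffold protein of the Scribble polarity module, was measured at 130, 136 and 137 CPM in untreated and 104, 98.0 and 89.0 CPM in IR libraries. AFDN (ENSG00000130396, chr6:167826893-167972023, plus strand), which ties nectins to actin filaments, was measured at 161, 167 and 158 CPM in untreated and 132, 114 and 104 CPM in IR libraries. In neither gene did the groups overlap, and in both IR replicate 3 was the lowest library.

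The log2 fold change was -0.47 (standard error 0.07) for DLG1 and -0.48 (standard error 0.09) for AFDN. Over the 15 alternatives set for all genes it lay between -0.62 and -0.32 for DLG1 and between -0.59 and -0.41 for AFDN. With the GC trend removed the log2 fold changes were -0.32 for DLG1, -0.43 for AFDN and -0.60 for GPSM2.

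DLG1 has 71 transcripts in the files, of which 28 were at 0 in all libraries, and its leading transcript, DLG1-216, held 29.1%, 32.8% and 24.7% of the counts in untreated and 22.6%, 29.9% and 12.8% in IR libraries. DLG1-239 held under 0.127% in untreated replicate 1 but 18.9% and 13.03% in the other untreated libraries and 13.4% to 20.6% after IR. Single transcripts of DLG1 were therefore less stable between replicates than its sum. AFDN-206 held 49.7% to 66.8% of the counts of AFDN, with overlap between groups.

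HMMR (ENSG00000072571, chr5:163460203-163491941, plus strand) was measured at 125.2, 130 and 155 CPM in untreated and 135, 121 and 109 CPM in IR libraries. The groups overlapped, since IR replicate 1 exceeded 2 of the untreated libraries. The log2 fold change was -0.17 (95% confidence interval -0.40 to 0.05), which turned to 0.02 with the GC trend removed. HMMR has the lowest GC content of the 10 genes, 37.2%.

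HMMR-203, the canonical transcript, and HMMR-204 differ, among other exons, by one of 48 bases at chr5:163467701-163467748 (GRCh38, plus strand), a length divisible by 3. It is shown because 5 transcripts skip it and 1 includes it.
HMMR exon: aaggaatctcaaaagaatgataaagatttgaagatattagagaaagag

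The transcript with this exon made up 28.8%, 29.3% and 21.4% of the summed TPM of transcripts that include or skip it in untreated and 28.2%, 35.9% and 44.01% in IR libraries. The groups overlapped through IR replicate 1. HMMR-204 held 56.1%, 53.8% and 65.0% of the counts in untreated and 55.1%, 48.2% and 35.02% in IR libraries, also with overlap.

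INSC (ENSG00000188487, chr11:15112424-15247208, plus strand), the adaptor to the PAR proteins, was near the limit of detection with 6 to 10 counts in 5 libraries and 40 counts in the deeper IR replicate 3. Its level was 0.49, 0.45 and 0.29 CPM in untreated and 0.48, 0.49 and 0.89 CPM in IR libraries. The groups overlapped in CPM. On the TPM scale they did not, at 0.201, 0.241 and 0.204 in untreated and 0.405, 0.289 and 0.514 in IR libraries. These values rest on few counts, and no test of a difference is reported for INSC.

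Compared per length, the order of the mean levels in untreated cells was HMMR (146 TPM), GNAI2 (134), NUMA1 (74.5), DLG1 (72.0), AFDN (65.2), GPSM2 (62.9), GNAI1 (38.9), GNAI3 (35.2), GPSM1 (6.73) and INSC (0.215). The library ranges of HMMR and GNAI2, of NUMA1 and DLG1, of DLG1 and AFDN, of AFDN and GPSM2, and of GNAI1 and GNAI3 overlapped, so the order within these pairs is not settled by 3 libraries. After IR, GPSM2 was at 38.9 ± 2.28 TPM and GNAI1 at 42.9 ± 4.91 TPM (SD, n = 3 each), with overlapping ranges. NUMA1 per unit of GPSM2 was 1.28, 1.17 and 1.12 in untreated and 1.44, 1.45 and 1.65 in IR libraries. The groups did not overlap in that ratio.

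The genes whose pattern over the 6 libraries was most like that of GPSM2 were sought among 11676 genes, by the root mean square difference of log2 CPM values centred on the mean of each gene. Among the nearest were NCOR1 (0.0447), a nuclear receptor co-repressor, NFIB (0.0486), a transcription factor, SHPRH (0.0495), a ubiquitin ligase, and USP37 (0.0514), a deubiquitinase. Their mean levels went from 205 to 122 CPM for NCOR1, from 59.5 to 35.8 CPM for NFIB, from 45.7 to 26.6 CPM for SHPRH and from 55.4 to 35.3 CPM for USP37. None of them is among the 10 genes or the wider lists. Of the other spindle orientation genes, DLG1 stood in place 300 and AFDN in place 409 by this measure, NUMA1 in place 1880 and GPSM1 in place 11251. With 3 libraries in each of 2 groups, the measure mainly reflects the difference between the groups.

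Further genes of the pathway were taken from 5 lists of 93 genes that do not include the 10. Of these, 90 could be tested, 28 fell and 9 rose after IR, and 53 did not pass, with a median log2 fold change of -0.09 against 0.01 for all genes tested. The shares of all genes tested that passed, 14.5% lower and 15.5% higher, are the background to these counts. With the GC trend removed, 28 were lower and 4 higher, where 13.0% and 11.0% of all genes tested passed in these directions. With the effective length offset, 11 were lower and 2 higher, against 6.11% and 5.84% of all genes tested. The same shares, setting by setting, are the background to the counts of each list below, some of which lie near them.

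Dynein, dynactin and their adaptors, the motor that NUMA1 recruits, had 7 of 25 tested genes lower and 1 higher, with a median of -0.03, 5 lower and 1 higher with the GC trend removed, and 3 lower with the effective length offset. SPDL1 (Spindly, a dynein adaptor of the kinetochore) fell by 0.48 on the log2 scale (adjusted p = 0.00415) and ACTR1B, an actin-related subunit of dynactin, rose by 0.39 (adjusted p = 0.0121, edgeR's quasi-likelihood test for both). SPDL1 no longer passed with the length offset, and ACTR1B did not pass there, on the TPM scale, or with the GC trend removed (0.17). DYNC1H1, the dynein heavy chain, was at -0.23 (adjusted p = 0.0368) by edgeR's test on scaled counts but at 0.34 with the effective length offset and 0.29 on the TPM scale, where it did not pass. It also did not pass with the replicate block or without untreated replicate 1 (-0.25), untreated replicate 2 (-0.18) or IR replicate 2 (-0.19). DCTN1, the large subunit of dynactin, was at -0.03 (adjusted p = 0.748, edgeR's quasi-likelihood test).

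Polarity proteins and cortical partners had 5 of 24 tested genes higher and 3 lower, with a median of -0.03, 2 higher and 4 lower with the GC trend removed, and 2 higher with the effective length offset. PARD6G, a PAR6 protein, was measured at 13.3, 13.5 and 13.9 CPM in untreated and 31.3, 30.7 and 39.7 CPM in IR libraries, with no overlap. Its log2 fold change of 1.33 (adjusted p = 1.58e-04, edgeR's quasi-likelihood test) was the largest in the 5 lists, and it passed under each of the 15 alternatives. The junction scaffold TJP1 had a log2 fold change of -0.44 (adjusted p = 0.0136, edgeR's quasi-likelihood test) and passed under 12 of the 15, failing with the length offset, on the TPM scale and without untreated replicate 2 (-0.37). PARD3, the scaffold that INSC binds, was at 0.02 (adjusted p = 0.865, the same edgeR test).

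G protein partners and GoLoco proteins had 2 of 13 tested genes higher and 4 lower, with a median of -0.04, 1 higher and 2 lower with the GC trend removed, and 1 lower with the effective length offset. RGS14, another protein with a GoLoco motif, was low (2.31 ± 0.326 CPM in untreated and 3.76 ± 0.386 CPM in IR libraries, SD, n = 3 each) and rose by 0.71 on the log2 scale (adjusted p = 0.0220, edgeR's quasi-likelihood test). RGS14 passed under 9 of the 15 alternatives and was lost with the GC trend removed (0.34), with the length offset (0.51), on the TPM scale (0.30) and without untreated replicate 1 (0.67), untreated replicate 3 (0.63) or IR replicate 3 (0.60). GNAO1, a G protein alpha subunit related to the Gαi subunits, fell by 0.51 (adjusted p = 0.00852, the same edgeR test) and did not pass with the length offset or on the TPM scale. RIC8A, the chaperone and exchange factor of Gαi, was at 0.07 (adjusted p = 0.508, edgeR's quasi-likelihood test) with overlapping groups, and its sign turned under 4 alternatives.

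Cell cortex and astral microtubule genes had 7 of 17 tested genes lower and 1 higher, with a median of -0.16, 8 lower with the GC trend removed, and 3 lower with the effective length offset. MYO10, a myosin of the cortex and filopodia, fell by 0.45 on the log2 scale (adjusted p = 0.00124, edgeR's quasi-likelihood test) and MAPRE3, an end-binding protein of microtubules, rose by 0.27 (adjusted p = 0.0431, the same edgeR test). MAPRE3 passed under 4 of the 15 alternatives and, with a library left out, only without IR replicate 1, at 0.22 to 0.31 over the 6 libraries left out in turn. KIF18B, a kinesin that shortens astral microtubules, fell by 0.25 (adjusted p = 0.0170, edgeR's quasi-likelihood test). KIF18B passed under 9 of the 15 alternatives and was lost with the replicate block, the length offset, on the TPM scale and without untreated replicate 1 (-0.22), untreated replicate 2 (-0.23) or IR replicate 2 (-0.23).

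Spindle pole proteins and mitotic kinases had 7 of 11 tested genes lower, whereas 4 did not pass, with a median of -0.29, 9 lower with the GC trend removed, and 4 lower with the effective length offset. ASPM, a spindle pole protein that binds microtubule minus ends, fell by 0.80 on the log2 scale (adjusted p = 9.74e-04) and PLK1, the mitotic kinase, by 0.24 (adjusted p = 0.0153, edgeR's quasi-likelihood test for both). PLK1 did not pass without untreated replicate 1 (-0.23), untreated replicate 2 (-0.25) or IR replicate 2 (-0.25). FAM83D, which recruits a kinase to the spindle, was at -0.25 (adjusted p = 0.0620, the same edgeR test). The mitotic cell markers, whose summed level was lower in each IR library, moved with this list, and their part in it was not tested.

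**Figure D4:**
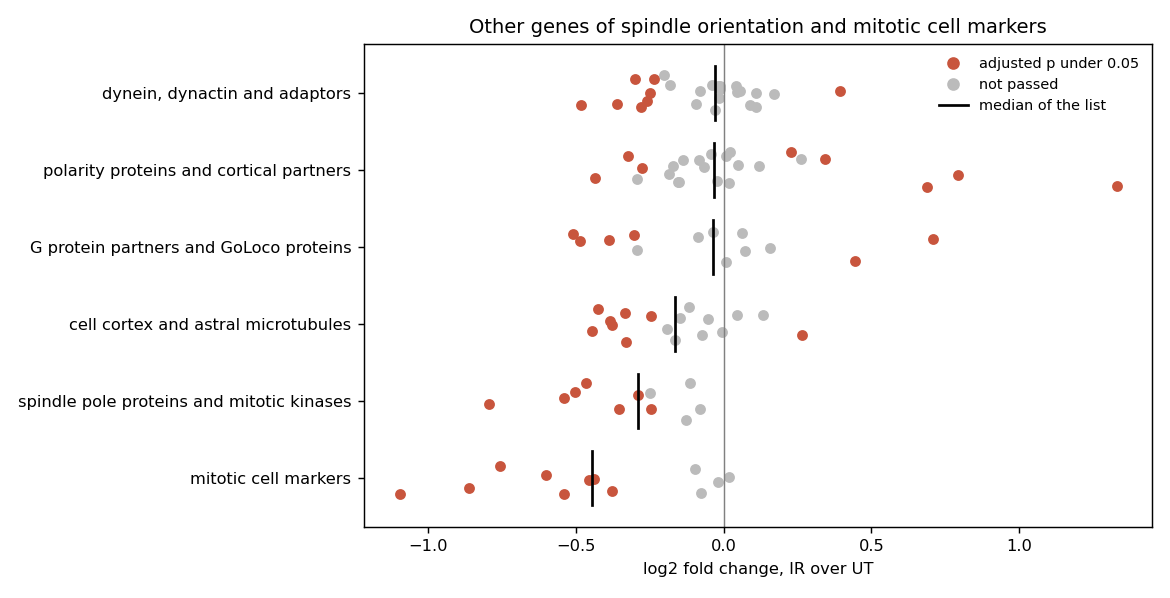
Log2 fold change of IR over untreated (x axis) for the tested genes of 5 lists of spindle orientation genes and of the mitotic cell markers (y axis, points spread vertically for view). Red points passed an adjusted p of 0.05 in edgeR's quasi-likelihood test, grey points did not, and black lines are medians, from -0.03 for dynein, dynactin and adaptors to -0.29 for spindle pole proteins and -0.45 for mitotic cell markers.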

How the data were processed

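RNA of 3 untreated and 3 IR libraries of U-2 OS cells was analysed, grouped by the sample labels. The authors removed adaptors with fastp and ran kallisto against GENCODE release 37 (GRCh38). The deposited files give an estimated count per transcript, without normalization, and a TPM value in which the authors corrected for effective length and depth. For 24.2% to 29.1% of transcripts the effective length is longer than the transcript, so that TPM and the length offset may include a correction for sequence bias. The kallisto version and strand setting are not given in the sources used here.

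Identifiers were looked up in GENCODE release 44, where 158711 transcripts were found and 2460 were not, and 98.2% to 98.5% of the counts of a library were kept. Estimated counts were summed per gene, rounded, filtered with filterByExpr, scaled by TMM and tested by the quasi-likelihood test of edgeR 4.0.16 under R 4.3.3, with Benjamini-Hochberg adjustment over 14323 genes and a threshold of 0.05. Alternatives used DESeq2 1.42.0 and limma 3.58.1. The scripts were tested on simulated data. Replicates of a group differed beyond sampling noise, with a lowest chi-square per gene of 3.47, and none was counted as a copy. Pairs with IR replicate 3 gave the highest values (28.0 and 31.1), in a measure that rises with depth. Intervals and limits from 0 counts (3 counts of the total of the gene in that library) cover counting error only.

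The 10 genes and the lists were chosen with earlier results of these data known. Named genes are the 10, the called gene of highest and of lowest log2 fold change in each of the 5 lists, RIC8A, DYNC1H1, DCTN1, PARD3, FAM83D, KIF18B, MKI67, CCNB1, TOP2A, CDKN1A and the 5 genes most like GPSM2 (mean of at least 100 counts, pseudocount 0.5). A gene that this rule selects is not reported here. CLCC1, single transcripts, exons and motif windows were chosen after their values were seen. The 15 alternatives were 2 other filters on low counts, size factors of DESeq2 in the edgeR test, the Wald test of DESeq2, the likelihood ratio test of edgeR, the replicate number as a block, subtraction of the GC trend, an effective length offset, limma-trend on log2(TPM + 1), and leaving out each of the 6 libraries. GPSM2 on transcripts free of CLCC1 was an alternative added after the data were seen.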

Additional observations from a re-analysis of the deposited data

How the results depend on the processing

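GPSM2, DLG1 and AFDN were lower and passed under each of the 15 alternatives, but on its transcripts free of CLCC1, chosen after seeing the data, GPSM2 was at -0.26 and did not pass. None of those transcripts holds the 2052 coding bases of the leading one. On log2(TPM + 1) with limma-trend, 393 genes were higher and 875 lower (31.0% of the called genes higher, against 51.7% with scaled counts), 0 of the 10 genes were higher (1 at an unadjusted p under 0.05), and 1 gene of the wider lists was higher and 14 lower. With the effective length offset, 837 genes were higher and 875 lower, and 2 and 11 of the wider lists. With the GC trend removed, 4 genes of the wider lists were higher, and GNAI1 passed in place of GPSM1. Leaving out 1 library gave 1295 to 2114 genes higher and 1244 to 2284 lower, the fewest without untreated replicates 1 and 2, and 4 to 7 higher genes in the wider lists, with 4 without untreated replicate 1 or 2 and 5 without untreated replicate 3. Signs turned for GNAI2 (-0.028) and HMMR (0.016) with the GC trend removed, for RIC8A (-0.13 with the GC trend removed, -0.095 with the length offset, -0.12 on log2(TPM + 1), and from -0.0048 without IR replicate 3 to 0.12 leaving out other libraries), for DYNC1H1 (0.34 with the length offset, 0.29 on log2(TPM + 1)), for PARD3 (-0.016 without IR replicate 1 and -0.022 without IR replicate 2, up to 0.067 without IR replicate 3) and for CCNB1 (0.079 with the GC trend removed, 0.046 with the length offset, and from -0.090 without IR replicate 3 to 0.0084 without untreated replicate 3). The cause was not tested. With the replicate numbers as a block, 1727 genes were higher and 1624 lower, of the 10 genes 1 was higher and 3 were lower (NUMA1 no longer passed), and of the wider lists 7 and 26. The deviations of same-numbered libraries correlated at -0.0074, -0.06 and -0.09, so no pairing by number was visible. With 3 libraries per group, these correlations cannot settle whether the samples were paired. Depth limits INSC, and 3 libraries per group limit the rest.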
